A study of Mus musculus with 6 samples.

Results

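The genes described here are regulators and markers of the epithelial to mesenchymal transition, measured in mouse ETX-embryos. They were selected by name from the deposited table: the transcriptional repressors Snai1, Snai2 and Zeb2, the epithelial genes Cdh1 and Epcam, and the mesenchymal genes Cdh2, Vim and Fn1. Of these 8 names, 7 have a row of their own among the 12826 genes of the table. Zeb2 has none and is present only in an entry shared with the microRNA gene Mir5129, so the repressors are represented by 2 genes. Because the set was proposed with the levels of these genes in the posterior and anterior libraries already known, differences of the 7 members between those libraries are given as descriptions, without a test.

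ETX-embryos are embryo-like structures that form in suspension culture when stem cells of 3 kinds from the mouse are combined, namely embryonic, trophoblast and extraembryonic endoderm (XEN) ones. No treatment was applied, and a reporter line for T/Brachyury, marked by GFP, was used to make them. The trophoblast part was dissected off and the remaining embryonic part was split along its length. The piece with GFP is the posterior group and the piece without GFP is the anterior group, each with 3 Smart-seq2 libraries, 1 from every one of the individual structures A, B and C. Where 3 values are given for a group, they are in the order of embryos A, B and C. The labels do not mention a step that removes the XEN-derived layer, and the pieces are mixtures of cells.

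Epithelial cells hold together through E-cadherin, the product of Cdh1, and through junction complexes at their lateral surfaces. During gastrulation, epiblast cells at the primitive streak lose this organisation and leave as mesoderm. The zinc finger proteins Snai1 and Snai2 and the zinc finger homeobox protein Zeb2 bind E-box sequences and repress Cdh1 and other epithelial genes, while N-cadherin (Cdh2), vimentin (Vim) and fibronectin (Fn1) are commonly found in the mesenchymal state. Parietal endoderm also produces vimentin and matrix proteins.

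The posterior libraries were the deeper ones. Relative to anterior A, depth read from the steps of low FPKM values was 1.41 and 1.43 for the anterior pieces of B and C, and 2.20, 2.82 and 1.56 for the posterior pieces. Genes above 0 numbered 9969, 11082 and 9335 in anterior libraries and 12018, 12141 and 10260 in posterior libraries. Of all 12826 genes, 22.3%, 13.6% and 27.2% were listed at 0 on the anterior side. On the posterior side the shares were 6.30%, 5.34% and 20.0%. Counts of genes above 0 in the lists below are to be read against these shares. T, whose reporter defined the pieces, had log2(FPKM + 1) values of 2.59 and 4.05 in the posterior pieces of A and B and was listed at 0 in the anterior pieces. In embryo C it stood at 5.44 in the library labelled anterior and was listed at 0 in the library labelled posterior, so T goes against the labels in that embryo. In embryo C, Tdgf1, Mixl1, Wnt3 and Nodal had the higher value in the library labelled posterior. Anterior and posterior C values were 0 and 7.39 for Tdgf1 and 0 and 4.97 for Mixl1. Wnt3 stood at 0.92 and 6.15 and Nodal at 0.32 and 4.77. These genes had the smallest p of the gastrulation list described below, in a fit that included embryo C, so their direction there is partly built in. In that list Fgfr1 (4.83 and 1.84) and Arhgef2 (4.37 and 2.26) went the other way. The list's median difference in embryo C was 1.03. Of 12 epiblast markers, 8 to 10 were above 0 in anterior libraries and all 12 in each posterior library. Tdgf1 and Dppa4 were listed at 0 in the 3 anterior libraries, whereas Slc2a3 stood between 8.09 and 8.84 in all libraries. The summed level of the epiblast markers, as log2 of the summed FPKM plus 1, lay between 8.27 and 9.43 on the anterior side. On the posterior side it lay between 9.14 and 9.53. On average 11 of the 12 markers were higher in the posterior libraries. In embryo C, Otx2 (7.29 and 4.15) and Pou3f1 (3.85 and 0.62) were higher in the library labelled anterior. The posterior minus anterior difference had a median of 0.43 in log2 over the 10914 genes tested.

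The E-box CACCTG, read on both strands (as CAGGTG on the other), is the element that Snai and Zeb proteins recognise, and the sequence upstream of the start site was searched for it. Entries of the RefSeq promoter table (build GRCm38.p6) were searched for 3 members, Snai1, Epcam and Vim. Cdh2 was left out of the search beforehand. The 250 bases before the start site are printed for the epithelial gene Epcam and the repressor gene Snai1, in lower case with each match in capitals. Of the members searched, these are the ones in which a match was found. Epcam, chr17:87635729-87635978, plus strand, has 2 matches, beginning 187 and 19 bases before the start site. Snai1, chr2:167537945-167538194, plus strand, has 1 match, beginning 126 bases before the start site.
Epcam: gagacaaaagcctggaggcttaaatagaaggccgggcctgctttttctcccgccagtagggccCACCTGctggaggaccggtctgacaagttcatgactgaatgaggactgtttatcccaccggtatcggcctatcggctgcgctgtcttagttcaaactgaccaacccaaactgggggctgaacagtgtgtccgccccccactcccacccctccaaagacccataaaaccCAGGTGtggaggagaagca
Snai1: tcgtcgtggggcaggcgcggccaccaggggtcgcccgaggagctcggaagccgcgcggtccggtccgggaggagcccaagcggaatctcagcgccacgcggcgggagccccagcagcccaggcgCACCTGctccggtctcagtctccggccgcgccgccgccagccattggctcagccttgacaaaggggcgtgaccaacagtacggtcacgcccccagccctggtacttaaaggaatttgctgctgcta

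Of 32851 start sites in the table, 17.2% had at least 1 match in the same window and 2.06% had 2 or more. The Vim window, chr2:13574061-13574310, had no match to these letters. It lies before the RefSeq start site but inside the GENCODE span of Vim given below, so sequence before the GENCODE start was not searched. A match describes the sequence only, and binding was not measured.

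The repressors differed in where they were found: anterior B was the only library with both Snai1 and Snai2 above 0. Snai2 (chromosome 16, 14705852 to 14709385, plus strand), the gene of the Slug protein, was above 0 only on the anterior side, at 5.07, 2.78 and 3.47 in log2(FPKM + 1). It was listed at 0 in the 3 posterior libraries. On the FPKM scale, which is per length of transcript, the anterior levels were 32.7, 5.86 and 10.1. The groups did not overlap, and the mean was 3.77 ± 1.18 on the anterior side (SD, n = 3). The fitted posterior minus anterior difference was -3.77 ± 0.99 (SE, n = 3 embryos), and like every difference from libraries listed at 0 it depends on the 1 added before the logarithm and is not a fold change. Snai2 was one of 5 genes above 0 in all anterior and listed at 0 in all posterior libraries, which is 0.0458% of the genes tested. The others were 2610307P16Rik, Glt25d2, Khdc1b and Susd5. Their lowest anterior levels lay between 0.13 and 0.29, whereas that of Snai2 was 2.78. Snai2 was chosen with its levels in these libraries known, so the share and this level are descriptions and not evidence about it. Since these are pieces of tissue, fewer Snai2-expressing cells and less Snai2 RNA per cell cannot be told apart.

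Snai1 (chromosome 2, 167538195 to 167542814, plus strand), the gene of the Snail protein and a regulator required for mesoderm cells to leave the streak, was above 0 in all 3 posterior libraries and in 1 anterior library. On the posterior side it stood at 1.54, 2.19 and 1.88 in log2(FPKM + 1), which is 1.90, 3.56 and 2.67 FPKM. The anterior values were 0, 3.20 and 0. The highest level of Snai1 in the series, 8.18 FPKM, was therefore in anterior B, and the groups overlapped. The differences of embryos A, B and C were 1.54, -1.01 and 1.88, with a fitted mean of 0.80 ± 0.99 (SE). This mean was 0.43, 1.71 and 0.26 without embryo A, B or C, 0.31 after centring each library on its median and 0.32 after quantile normalization. Snai1 was listed at 0 in anterior A, the shallowest library, and in anterior C, the library with the fewest genes above 0 (9335). Relative depth was 1.43 in anterior C and 1.41 in anterior B, where Snai1 was highest. The part of depth in the values of 0 was not tested.

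The shared entry of Mir5129 and Zeb2 was low throughout, at 0.88, 1.82 and 0 on the anterior side and at 1.48, 2.0 and 0.71 on the posterior side. Reads of the microRNA gene and of Zeb2 cannot be separated in it. It was higher in the posterior library of each embryo, by 0.61, 0.18 and 0.71, and its groups overlapped.

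**Figure D1:**
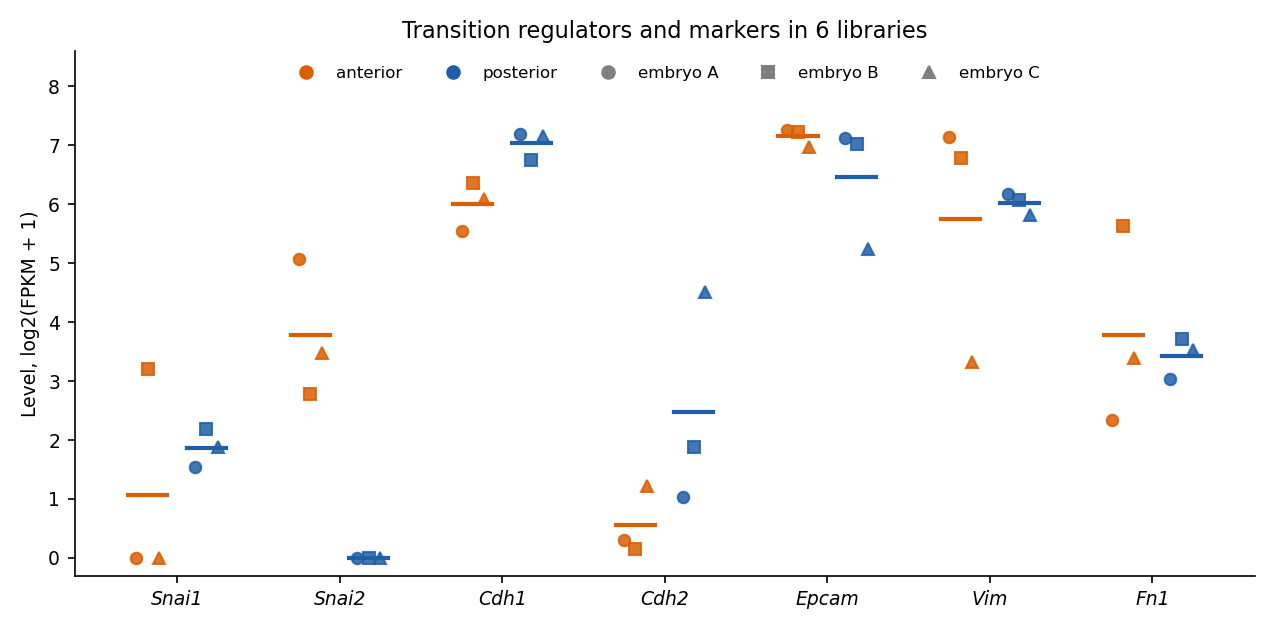
Each point is the level of a member in a library, as log2(FPKM + 1) on the vertical axis (orange, anterior; blue, posterior; circle, square and triangle for embryos A, B and C), with a bar at the mean of 3 libraries. Snai2 is at 0 in the 3 posterior libraries, Cdh1 is higher in every posterior library than in any anterior one, and Epcam in posterior C and Vim in anterior C lie below the other libraries.

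Both epithelial genes were among the abundant transcripts in all 6 libraries. Cdh1 (chromosome 8, 106603351 to 106670246, plus strand), which encodes E-cadherin, stood at 5.54, 6.35 and 6.09 on the anterior side and at 7.19, 6.74 and 7.16 on the posterior side, in log2(FPKM + 1). Every posterior library was above every anterior one. The means were 5.99 ± 0.42 and 7.03 ± 0.25 (SD, n = 3), and the fitted difference was 1.04 ± 0.66 (SE). In FPKM the posterior level was 3.20, 1.32 and 2.10 times the anterior level in embryos A, B and C. Cdh1 stayed between the 88.9th and the 94.2nd percentile of the genes of each library. With each library centred on its median gene, the Cdh1 difference was 0.55.

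Epcam (chromosome 17, 87635979 to 87651129, plus strand), an epithelial cell adhesion molecule of the plasma membrane, was at 7.25, 7.22 and 6.96 on the anterior side. It was at 7.12, 7.02 and 5.24 on the posterior side. The posterior library was the lower one in all 3 embryos, by 0.14, 0.20 and 1.72, and the groups overlapped. The differences in embryos A and B are of the size of the spread among the anterior libraries (SD 0.16), and most of the mean difference of -0.69 ± 0.67 (SE) comes from embryo C. Posterior C held 36.8 FPKM, and the next lowest library 124 FPKM. The fitted difference was -0.17 without embryo C, and -1.17 after centring each library on its median. Cdh1 and Epcam thus differed in opposite directions between the pieces of each embryo: Epcam minus Cdh1 was 1.72, 0.87 and 0.87 on the anterior side and -0.08, 0.28 and -1.91 on the posterior side.

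Of the mesenchymal genes, Cdh2 had the same direction as Cdh1. Cdh2, which encodes N-cadherin, was at 0.30, 0.15 and 1.22 on the anterior side and at 1.03, 1.88 and 4.51 on the posterior side, in log2(FPKM + 1). The posterior library was the higher one in each embryo, by 0.73, 1.73 and 3.28, with a fitted mean of 1.91 ± 0.96 (SE), which was 1.23 without embryo C and 0.87 after quantile normalization. The groups overlapped, since anterior C lay above posterior A. Cdh2 was a low transcript outside posterior C, where it reached 21.7 FPKM, against at most 2.67 FPKM elsewhere. The anterior A and B values of 0.229 and 0.108 FPKM are among the lowest of the members, and the reads behind them are unknown.

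Vim (chromosome 2, 13573927 to 13582826, plus strand), the intermediate filament gene of mesenchymal and many embryonic cells, was high in 5 of 6 libraries. It stood at 7.15, 6.79 and 3.33 on the anterior side and at 6.17, 6.07 and 5.82 on the posterior side. The library labelled anterior C, at 9.03 FPKM, was apart from the others, which ranged from 55.4 to 141 FPKM. In embryos A and B the posterior library was lower, by 0.98 and 0.72, and in embryo C it was higher, by 2.49. The fitted mean of 0.27 ± 0.85 (SE) became 0.89 and 0.76 without embryo A or B and 0.96 without anterior A and the embryo block. It turned to -0.85 without embryo C, to -0.22 when each library was centred on its median, and to -0.18 after quantile normalization.

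Markers of parietal endoderm and XEN cells had the same low library as Vim. Of 17 such markers, 16, 17 and 12 were above 0 on the anterior side, and 17, 17 and 16 on the posterior side. Over all genes, 27.2% were listed at 0 in anterior C, more than in any other library. Counts above 0 there are to be read against that share. The summed level of the 17 markers, as log2 of the summed FPKM plus 1, was 10.46, 11.08 and 8.24 on the anterior side. On the posterior side it was 8.83, 8.99 and 10.21. In anterior C, Gata4, Sox7, Sox17, Srgn and Thbd were listed at 0 (Thbd also in anterior A and posterior C), while Sparc stood at 8.09, Col4a1 at 3.64 and Lamb1 at 3.38. Of 14 visceral endoderm markers, 12, 12 and 4 were above 0 on the anterior side and 12, 14 and 9 on the posterior side, with summed levels of 10.16, 10.21 and 7.03 against 9.86, 11.86 and 9.66. Ttr and Rbp4 were listed at 0 in anterior C (Rbp4 also in posterior C), whereas Lrp2 was at its highest there, at 6.75, and Soat2 stood at 3.66. The part of endoderm cells in the Vim values was not tested.

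Fn1 (chromosome 1, 71585520 to 71653200, minus strand), which encodes the matrix glycoprotein fibronectin, was at 2.34, 5.62 and 3.38 on the anterior side and at 3.03, 3.72 and 3.53 on the posterior side. Anterior B held the highest level, 48.3 FPKM, and the remaining libraries lay between 4.05 and 12.1 FPKM. The groups overlapped and the embryos differed in sign, with 0.69, -1.91 and 0.15 in A, B and C. The fitted mean was -0.36 ± 0.94 (SE) and became 0.42 without embryo B, -0.88 without A and -0.61 without C. It was -0.84 after centring, -0.95 after quantile normalization and -1.08 without anterior A and the embryo block. In the GENCODE M21 annotation an antisense gene, Apol7d, overlaps exons of Fn1 on the other strand, and the protocol as labelled does not mark strand, so reads from that stretch cannot be assigned to 1 of them.

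**Figure D2:**
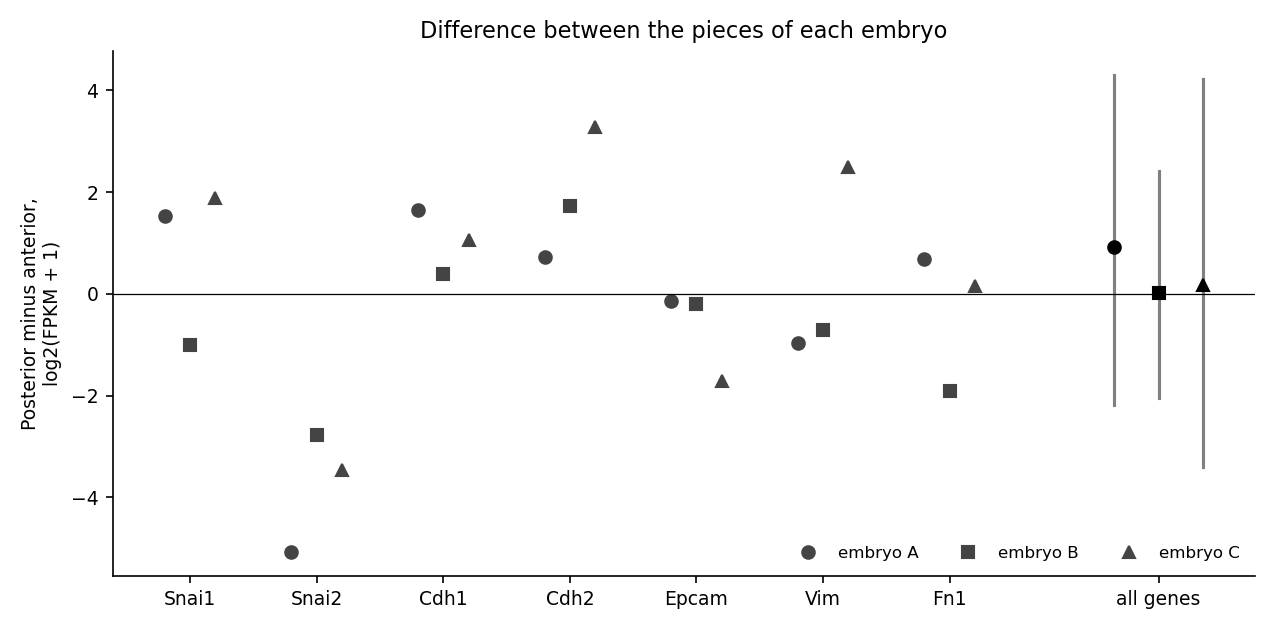
Vertical axis, posterior minus anterior difference of each member as log2(FPKM + 1), with a circle, a square and a triangle for embryos A, B and C. At the right, the median (black symbol) and the 5th to 95th percentile (grey line) over all genes tested are drawn for the same embryos. Snai2 and Epcam are below 0 and Cdh1 and Cdh2 above 0 in all 3 embryos, and the Vim point of embryo C lies on the other side of 0 from those of A and B.

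Counted over the 7 members, 4 were higher and 3 lower in the posterior libraries on average, against 64.9% and 35.1% of the genes tested. Cdh1 and Cdh2 were higher posteriorly in all 3 embryos, a pattern shown by 21.5% of genes. Snai2 and Epcam were lower there in all 3, a pattern shown by 8.25% of genes. Groups that did not overlap were seen for Cdh1, higher in the posterior libraries (12.3% of genes), and for Snai2, higher in the anterior ones (3.77% of genes). These percentages describe the table and are not evidence about members chosen on this contrast. In embryos A and B alone, Cdh1 and Cdh2 were higher in both posterior libraries (38.5% of genes), and Snai2, Epcam and Vim lower in both (18.7% of genes).

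The members were then set against each other within each library, so that a scaling common to the genes of a library largely cancels, except near 0. Repressors, as the mean log2(FPKM + 1) of Snai1 and Snai2, lay below the mean of Cdh1 and Epcam in every library. The gap was -3.86, -3.80 and -4.79 on the anterior side and -6.39, -5.79 and -5.26 on the posterior side. It was wider in the posterior piece of each embryo, by 2.53, 1.99 and 0.47, and the groups did not overlap. The 2 repressors did not share this direction. Posterior minus anterior differences were -5.07, -2.78 and -3.47 for Snai2 and 1.54, -1.01 and 1.88 for Snai1. Of the 2 repressors, only Snai2 was therefore lower in the posterior piece of embryos A and C. The epithelial mean also enters the gap, and differed by 0.76, 0.09 and -0.33 in embryos A, B and C. Within it Cdh1 differed by 1.66, 0.39 and 1.06, and Epcam by -0.14, -0.20 and -1.72. The repressor mean was 2.54, 2.99 and 1.74 on the anterior side and 0.77, 1.10 and 0.94 on the posterior side, where Snai1 was the only repressor above 0.

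Repressors also lay below the mesenchymal mean of Cdh2, Vim and Fn1. The gap was -0.72, -1.20 and -0.91 on the anterior side and -2.64, -2.79 and -3.68 on the posterior side, again with no overlap. This gap too combines Snai2 and Snai1, which differed in opposite directions in embryos A and C. The repressor mean differed by -1.77, -1.89 and -0.80 in embryos A, B and C, and the mesenchymal mean by 0.15, -0.30 and 1.98. In embryo C the larger part was thus mesenchymal, with Cdh2 higher by 3.28 and Vim by 2.49. The mesenchymal mean itself was 3.26, 4.19 and 2.64 on the anterior side and 3.41, 3.89 and 4.62 on the posterior side.

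Mesenchymal genes stayed below epithelial genes in all 6 libraries. The gap was -3.14, -2.60 and -3.89 on the anterior side and -3.75, -2.99 and -1.58 on the posterior side. The groups overlapped. In embryos A and B the gap was wider in the posterior piece, by 0.61 and 0.39, and in embryo C it was narrower, by 2.31. The mean change of 0.43 ± 1.62 (SD over 3 embryos) became -0.50 without embryo C and -0.061 when FPKM values were summed before the logarithm.

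The cadherins were compared in the same way. Cdh2 minus Cdh1 was -5.24, -6.20 and -4.87 on the anterior side and -6.16, -4.86 and -2.65 on the posterior side. Cdh1 exceeded Cdh2 in every library, by more in the posterior piece of embryo A and by less in those of B and C. The smallest gap was in the library labelled posterior C, in which Cdh2 was at its highest, Epcam at its lowest and Cdh1 at 7.16, close to its highest value of 7.19.

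**Figure D3:**
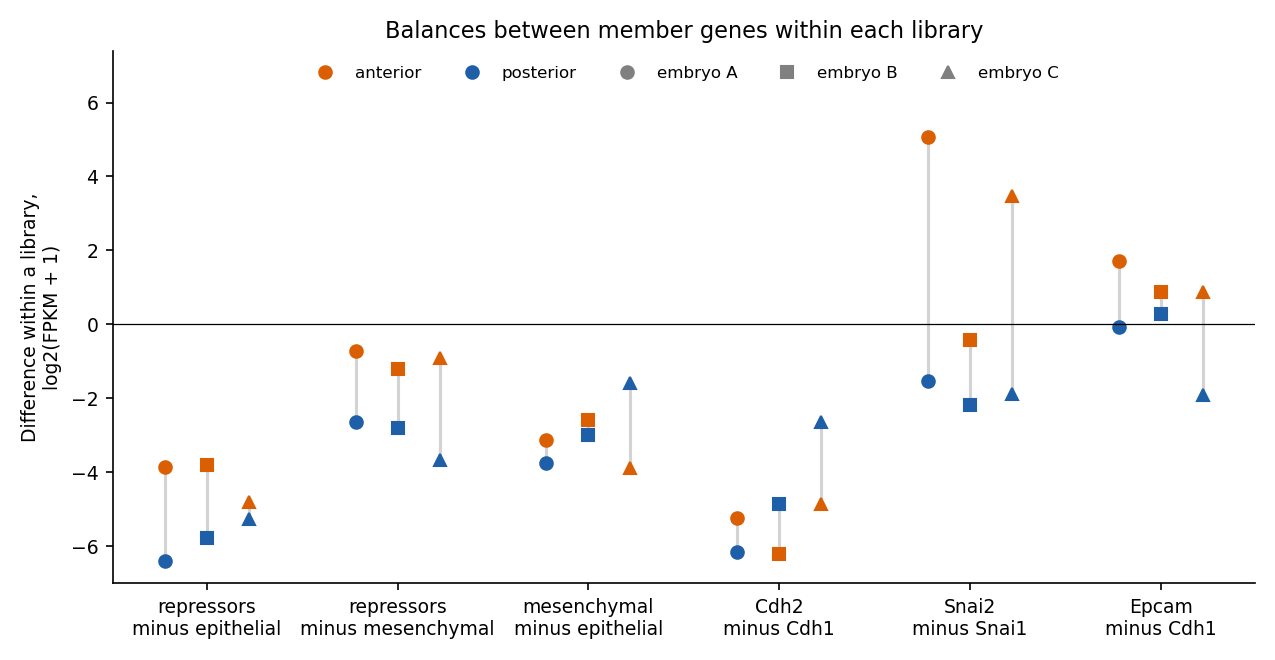
Difference between groups of members, or between 2 members, within a library on the vertical axis, in log2(FPKM + 1) (orange, anterior; blue, posterior; circle, square and triangle for embryos A, B and C), with a grey line joining the pieces of an embryo. Repressors minus epithelial and repressors minus mesenchymal are lower in the posterior piece of all 3 embryos, and mesenchymal minus epithelial is higher only in that of embryo C.

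By level, Epcam was the highest member in 4 libraries (anterior A, B and C and posterior B) and Cdh1 in the other 2 (posterior A and C), on the FPKM scale. Fn1 lay between the 49.9th and 86.6th percentile of the genes of its library, and Cdh2 between the 14.9th and the 70.8th. Over the 6 libraries Cdh1 was among the less variable genes, with an SD of 0.65 that exceeded that of 13.6% of genes tested. Snai2 was among the more variable, with an SD of 2.20 that exceeded that of 94.3%. The median SD was 1.26 over the members and 1.17 over all genes tested.

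Differences among embryos A, B and C are a contrast that the choice of members did not use, and were tested with limma's F test. None of the 7 members passed (limma adjusted p from 0.996 to 0.998), and the smallest unadjusted p was 0.142, for Vim. Embryo means of Vim were 6.66, 6.43 and 4.57 in A, B and C. Over all genes 0% passed at the adjusted threshold of 0.05, and 2.77% had an unadjusted p under 0.05. The fit had 3 embryos and 2 residual degrees of freedom.

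The genes whose profile over the 6 libraries was nearest to each member were listed by the root mean square difference after removing each gene's mean. For Snai2 these were Tgfb2, a TGF-beta ligand (0.36), Tfap2a, an AP-2 transcription factor of surface ectoderm and neural crest (0.59), and Pfkfb3, an activator of glycolysis (0.79). Tgfb2 was at 5.12, 2.58 and 3.84 on the anterior side, in log2(FPKM + 1), the same order as Snai2, and at 0.84, 0.71 and 0.13 on the posterior side. Tfap2a was at 5.35, 2.99 and 5.27 against 1.39, 1.12 and 1.44. All 3 neighbours were higher in every anterior library than in any posterior one, as were 3.77% of the genes tested. This follows largely from their choice by nearness to Snai2 over the same libraries.

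For Vim the nearest were Fam108a (0.13), Lgmn, which encodes the lysosomal protease legumain (0.14), and Tmem109 (0.21). Lgmn stood at 6.53, 6.44 and 2.68 on the anterior side and at 5.84, 5.64 and 5.54 on the posterior side. The nearest to Epcam were Elk1 (0.16), Sbds (0.19) and Lmo7 (0.19), and to Cdh1 they were Kpna1 (0.10), a joined entry of AK010878, Gm20604 and Moap1 (0.13) and Gnao1 (0.15). Cdh2 was nearest to Rab3d (0.26), the integrin gene Itga9 (0.32) and Ptcd1 (0.35). Snai1 was nearest to E430025E21Rik (0.13), 2810422O20Rik (0.13) and Pyroxd1 (0.17), and Fn1 to Aars2 (0.17), 1500003O03Rik (0.27) and 0610007N19Rik (0.29). With 6 libraries and 10914 genes, near profiles are a description of these libraries.

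**Figure D4:**
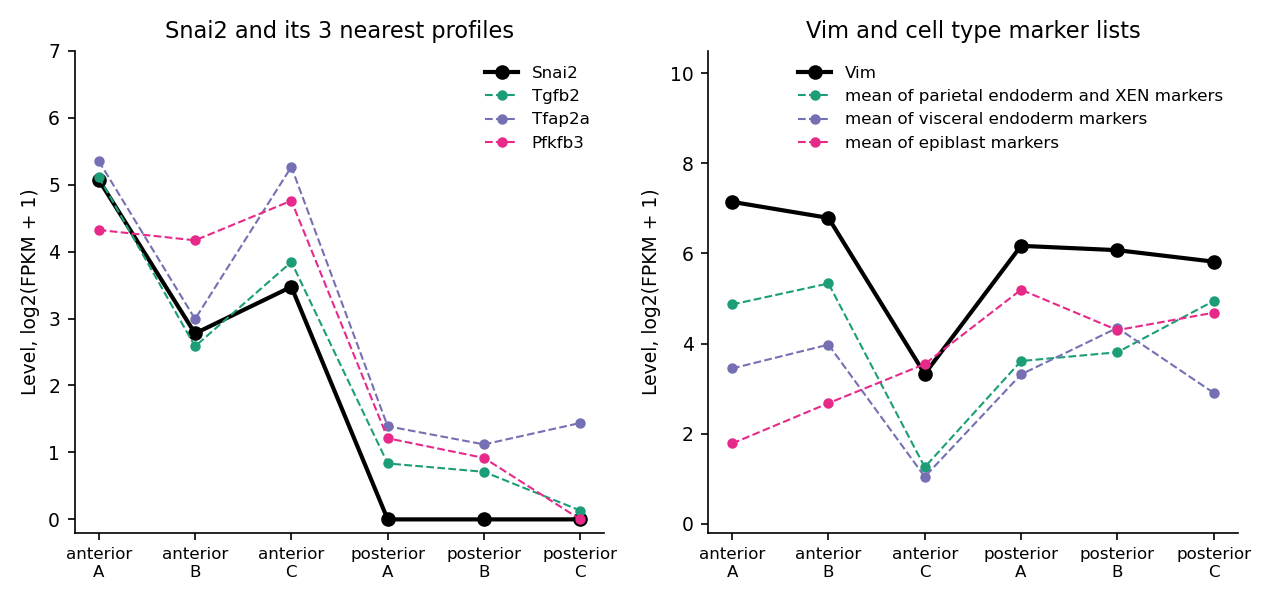
Levels in log2(FPKM + 1) on the vertical axes across the 6 libraries, with lines as a guide to the eye only. Left, Snai2 (black) with its 3 nearest profiles, at 2.58 or more in the anterior libraries and at most 1.44 in the posterior ones. Right, Vim (black) with the mean level of 3 marker lists, in which Vim and both endoderm lists are lowest in anterior C.

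Other genes of the transition were examined by lists of their roles. No gene of any list passed the test between posterior and anterior libraries with limma at an adjusted p of 0.05, as was the case for all 10914 genes (0% in each direction, smallest adjusted p 0.211). The shares of all genes with an unadjusted p under 0.05 were 7.24% for higher posterior levels and 0.788% for higher anterior levels. Counts at that level are given for the lists as descriptions. Since 64.9% of all genes were higher in the posterior libraries on average, with a median of 0.43 that became -0.06 after centring each library, the counts of genes higher there are to be read against that share. In the fit without embryo C, 898 of 10914 genes had an unadjusted p under 0.05 with higher posterior levels and 140 with higher anterior levels, and the lists' counts without that embryo are to be read against those.

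Of 13 other transcription factors linked to the transition, 9 were higher in the posterior libraries on average, with a median difference of 0.25. At the unadjusted level 1 gene was higher posteriorly (Foxf1) and 1 anteriorly (Tead1), and without embryo C the counts were 2 and 1. Twist1, a basic helix-loop-helix factor of mesoderm, was at 0.78, 0 and 0.41 on the anterior side and at 1.13, 2.49 and 3.51 on the posterior side (1.98 ± 0.97 SE, limma adjusted p 0.625). Foxf1, a forkhead factor of extraembryonic and lateral mesoderm, was listed at 0 on the anterior side and stood at 1.08, 1.99 and 2.80 posteriorly (limma adjusted p 0.617). Tead1, a DNA-binding partner of YAP, was at 7.52, 6.46 and 7.36 against 4.53, 4.99 and 5.83, a difference of -2.0 ± 0.70 (limma adjusted p 0.566). Sox9 ranged from 0 in anterior A to 7.04 in anterior C.

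Factors that maintain the epithelial state did not share a direction, with 4 of 8 higher and 4 lower in the posterior libraries (median 0.09). Klf5, a Krüppel-like factor, was at 2.52, 4.37 and 2.84 on the anterior side and at 5.15, 4.95 and 6.09 on the posterior side. Elf3, an epithelial ETS factor, was at 3.97, 5.70 and 4.18 against 2.68, 1.99 and 2.25. These were the members of the list with an unadjusted p under 0.05, with differences of 2.16 ± 0.88 and -2.31 ± 0.94 (limma adjusted p 0.608 and 0.612). Without embryo C the list had 0 genes higher posteriorly and 2 higher anteriorly at that level. Foxa2, an endoderm factor, differed by -1.42 ± 0.87, and Elf5, a trophoblast factor, was above 0 only in the posterior pieces of A and B. Esrp1, which directs epithelial splicing, ranged from 2.52 in posterior C to 5.15 in anterior C, and Grhl2, an activator of Cdh1 transcription, from 0 in anterior A to 3.24 in posterior A. Ovol2, a repressor of mesenchymal genes, stayed at or below 1.25 and was under the filter.

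Of 19 names listed for the adherens junction, 14 were present. Of these genes 14, 12 and 13 were above 0 on the anterior side and 14, 14 and 13 on the posterior side. The catenins were above 0 in all libraries. Ctnna1 (alpha-catenin) lay between 6.22 and 7.50, Ctnnb1 (beta-catenin) between 4.60 and 7.38, and Ctnnd1 (p120-catenin) between 1.69 and 4.28, in log2(FPKM + 1). Their posterior minus anterior differences were 0.25 ± 0.69, 0.12 ± 0.77 and 0.95 ± 0.96 (SE), each smaller than its error. The first and the second turned to -0.23 and -0.37 after centring. P-cadherin, the product of Cdh3, lay between 0.71 and 2.34 in all libraries. None of the 12 tested genes of this list had an unadjusted p under 0.05, and the median difference was 0.30. The smallest p in the list belonged to the nectin gene Pvrl1 (1.60 ± 0.88), followed by Mllt4 (0.96 ± 0.96) and Ctnnd1, while Vcl, which encodes vinculin, differed by 0.36 ± 0.83 and by -0.13 after centring.

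Among 38 genes of tight junctions, desmosomes, polarity and simple keratins, 23 were higher in the posterior libraries (median 0.19), with 4 of them at an unadjusted p under 0.05 and none in the other direction. Crb3, an apical polarity protein gene whose promoter is a known target of repression in the transition, was at 0.24, 0 and 0.32 on the anterior side and at 5.12, 3.34 and 4.85 on the posterior side. Its difference was 4.25 ± 0.98 (SE), with a limma adjusted p of 0.520. Marveld2, which encodes the tricellular junction protein tricellulin, was at 0, 0.16 and 0.56 against 2.08, 2.79 and 4.11. Llgl1 and Ap1m2 differed by 2.14 ± 0.92 and 3.32 ± 1.21 (limma adjusted p 0.617 and 0.573). Without embryo C, 2 genes of this list had an unadjusted p under 0.05, and 2 did in a fit that left out both anterior A and the embryo block. Krt8 and Krt18, keratins of simple epithelia, ranged from 5.38 to 7.25 and from 7.14 to 8.75. Crb2, required for cells to leave the mouse streak, lay between 0.30 and 1.95.

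Of 28 genes of the mesenchymal cytoskeleton and matrix, 18 were higher in the posterior libraries (median 0.42, against 0.43 for all genes), with 2 at an unadjusted p under 0.05. Tagln2, which encodes an actin-binding protein of the calponin family, was at 1.29, 4.25 and 0.68 on the anterior side and at 6.74, 6.36 and 4.81 on the posterior side (3.90 ± 0.94 SE, limma adjusted p 0.520). Has2, the hyaluronan synthase, was at 0, 0.16 and 1.12 against 2.96, 3.80 and 1.98. Nes (nestin) and Tagln differed by 2.10 ± 0.95 and 2.25 ± 1.02. Without embryo C the counts at that level were 5 for higher posterior and 2 for higher anterior levels.

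Receptors and adhesion partners of fibronectin showed no common direction, with 9 of 13 higher in the posterior libraries, a median difference of 0.28 and no unadjusted p under 0.05. Itgb1, the beta subunit of most fibronectin receptors, lay between 5.01 and 6.86 in all libraries, and Itga5, its fibronectin-specific partner, between 0 in anterior C and 3.02 in posterior C. The smallest p-values in this list were those of Parva (-1.18 ± 0.98), Ilk (1.08 ± 1.17), Lims1 (0.84 ± 0.95) and Itgb1 (0.55 ± 0.75).

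In the TGF-beta pathway, a classical inducer of the transition, 13 of 19 genes were higher in the posterior libraries (median 0.18). The ligand gene Tgfb2, the nearest profile to Snai2, differed by -3.29 ± 1.01 (SE, limma adjusted p 0.551). Smad7, an inhibitory SMAD, was at 1.51, 3.52 and 0.74 on the anterior side and at 4.78, 4.45 and 4.11 on the posterior side. Skil and Ski, which encode corepressors of SMAD proteins, differed by 1.95 ± 0.83 and 2.31 ± 1.05. At the unadjusted level Smad7 and Skil were higher posteriorly and Tgfb2 anteriorly, and without embryo C the counts were 1 and 1.

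Genes that act upstream of or during the gastrulation transition had the largest median difference of the 9 lists of roles in the transition, 1.21 against 0.43 over all genes, with 18 of 24 higher in the posterior libraries. At an unadjusted p under 0.05, 8 were higher in the posterior and none in the anterior libraries, and without embryo C the counts were 10 and 1. The epiblast markers, of which Tdgf1 is also a gene of this list, had the same direction: 11 of 12 were higher in the posterior libraries (median 1.77), 4 of them at an unadjusted p under 0.05, and their part in the list's difference was not tested. Tdgf1, Mixl1, Wnt3 and Nodal had the smallest p (limma adjusted p from 0.282 to 0.520), with differences between 4.70 and 6.13. Eomes, which acts upstream of Mesp1 and of Cdh1 loss in the streak, was at 0, 0 and 1.25 on the anterior side and at 5.55, 5.21 and 3.72 on the posterior side. Mesp1, a factor of nascent mesoderm, was listed at 0 on the anterior side and stood at 1.80, 1.74 and 5.16 on the posterior side. The library with most Mesp1, posterior C, was also the one with most Cdh2 and least Epcam, while Cdh1 stood at 7.16 there. Other genes of the list were divided in that library. Among the posterior libraries Tdgf1 (7.39) was highest in C, whereas Eomes (3.72) and Mixl1 (4.97) were lowest there and T was listed at 0. The pieces were chosen by the reporter of T, which is itself a gene of this list, so its difference is no finding.

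Finally, of 21 genes whose products act with SNAIL or control its stability, 19 to 21 were above 0 in each library. Of these, 16 were higher in the posterior libraries (median 0.27) and none had an unadjusted p under 0.05. The smallest p belonged to Fbxl14 (1.69 ± 0.99), a ubiquitin ligase subunit for SNAIL proteins, and the corepressor genes Ctbp2 (1.17 ± 0.74), Ctbp1 (1.20 ± 0.82) and Kdm1a (1.04 ± 0.77).

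**Figure D5:**
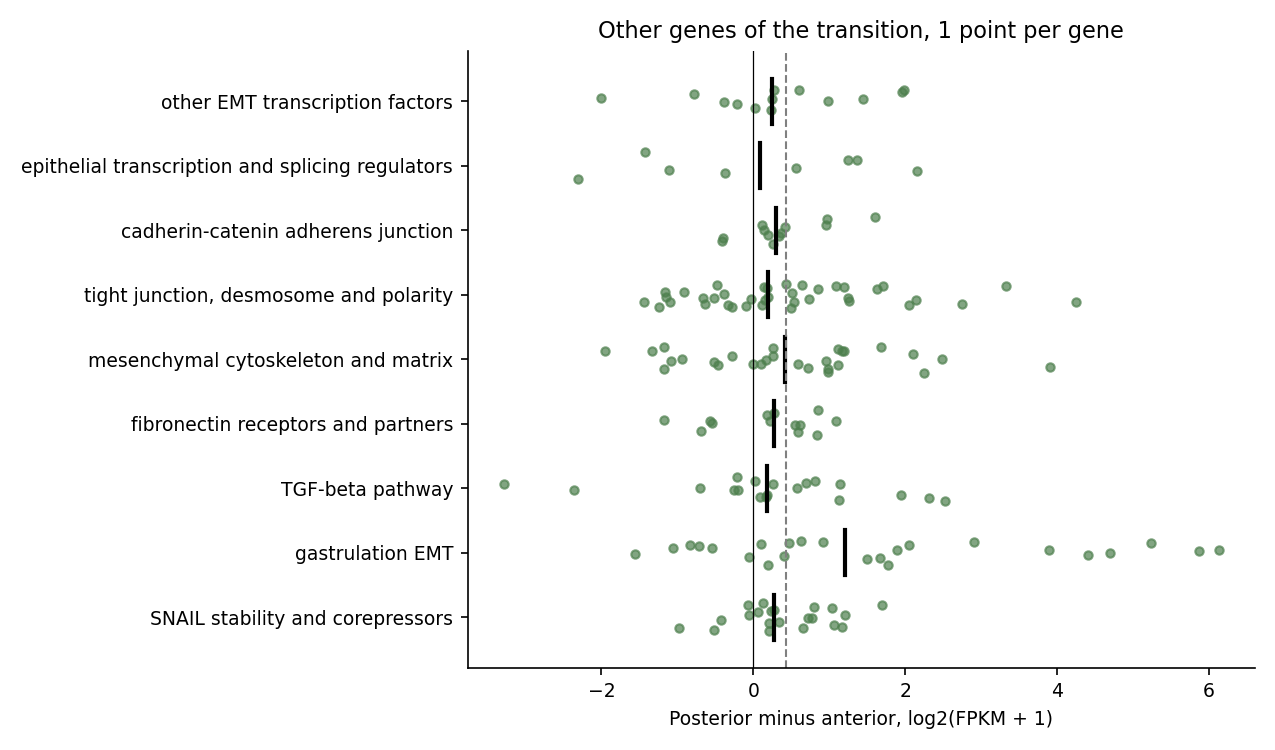
Posterior minus anterior difference in log2(FPKM + 1) on the horizontal axis for the tested genes of 9 lists, 1 point per gene, with a black bar at the median of each list and a dashed line at the median of all genes tested. The gastrulation list has a median of 1.21 and the other lists lie between 0.09 and 0.42, below or at the dashed line at 0.43.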

How the data were processed

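Per the labels' protocols, each piece gave a Smart-seq2 library with 18 cycles of preamplification, mapping used Ensembl 38.77 and counting used HTSeq-count. Build mm10, Cufflinks 2.0.2 and TopHat2 2.0.4 appear in the submitters' processing notes. The step that gave the values, and any further normalization, are not given in the sources used here. Values deposited by the authors are log2(FPKM + 1) for 12826 genes. The base was read from them: raising 2 to a value above 3 and subtracting 1 gave at most 6 significant digits (relative tolerance 1e-08) in 99.1% to 99.5% of values per library. Absolute depth is unknown, and relative depth came from the most frequent ratio of FPKM values under 1 to anterior A.

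Genes averaging 1 FPKM or more over the libraries (10914) were fitted with limma 3.58.1 in R 4.3.3 (two-sided, mean-variance trend, embryo as a block, Benjamini-Hochberg over all genes). The procedure was tested on simulated data with less noise than these libraries and no embryo effect. Its power at the noise of these libraries was not tested. All 7 members passed this filter. The block follows from the dissection of 1 individual, and the deviations of paired pieces correlated at -0.07, 0.04 and -0.03 in A, B and C. Positions are from GENCODE M21 (GRCm38).

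Members and gene lists were chosen with earlier results of these data known. Genes named are all members, the 3 nearest profiles of each, the 4 smallest p-values per list and a fixed set of core genes. The 4 other genes with the Snai2 pattern, endoderm and epiblast markers, and Fgfr1 and Arhgef2, were named after their values were seen. The part of depth in the differences was not tested.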

Additional observations from a re-analysis of the deposited data

How the results depend on the processing

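Between posterior and anterior libraries limma called 0 genes with and without the replicate block (unadjusted p under 0.05: 790 higher in the posterior and 86 in the anterior libraries with it, 912 and 119 without), and 0 under every other alternative run. After quantile normalization the unadjusted counts were 527 and 276. Among embryos, where the count was 0, it was 3 with no filter, 3 after quantile normalization, 3 after centring on library medians and 0 to 4 when single embryos were left out. Snai2, Epcam, Cdh1, Cdh2 and Snai1 kept their sign under every alternative that could be fitted, and Vim and Fn1 turned in 3 and 1 of 12. Snai2 ranged from -6.98 (pseudocount 0.1) to -1.88 (pseudocount 5). With a mean of at least 5 FPKM required, Snai1 and Cdh2 were not tested and 2 of 5 members were higher in the posterior libraries. The change in repressors minus mesenchymal, -2.10, was -3.20 with pseudocount 0.1, -1.11 with pseudocount 5 and -1.43 with the shared Zeb2 entry added (chosen after seeing the data). Repressors minus epithelial, -1.66, was -2.34 and -1.03 with these pseudocounts, -2.44 on summed FPKM and -0.999 with the shared entry. With pseudocounts 0.1 and 5, Snai1 was 2.65 and 0.15 and Cdh2 3.15 and 0.96. The nearest profiles cannot change with centring, by its construction.

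None of the 48 named genes outside the members was called under any alternative, and 14 changed sign in at least 1. After centring on library medians the differences were -0.13 for Vcl, -0.088 for T, -0.35 for Cdh3, -0.23 for Ctnna1, -0.37 for Ctnnb1 and -0.21 for Itga5. After quantile normalization they were -0.59 for Cdh3, -0.086 for Ctnna1, -0.20 for Ctnnb1, -0.31 for Itga5 and -0.52 for Crb2. With pseudocount 5, T was at -0.068. Without anterior A and without the replicate block they were -0.48 for Sox9, -0.51 for T, -0.20 for Ctnnb1 and -0.27 for Grhl2. Leaving out single embryos gave ranges of -0.42 to 3.19 for Sox9, -0.41 to 1.83 for Ilk, -0.10 to 1.14 for Itgb1, -1.43 to 3.32 for T, -0.13 to 0.58 for Cdh3, -0.26 to 0.83 for Ctnna1, -0.34 to 0.96 for Ctnnb1, -1.28 to 0.75 for Esrp1, -0.78 to 2.02 for Grhl2, -1.49 to 0.22 for Krt8, -0.058 to 0.96 for Krt18 and -1.10 to 1.13 for Itga5. The cause was not tested. Values of 0 for Snai1 in anterior A and C, and Cdh2 levels under 1 FPKM in anterior A and B, limit what can be said of these genes there.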

Other observations

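Markers of cell types other than epiblast and endoderm were also summed in each library. Of 11 trophoblast markers, 6, 6 and 8 had a value above 0 on the anterior side (embryos A, B and C) and 10, 11 and 8 on the posterior side, with a summed level between 7.19 and 8.01 in log2 over all libraries. Of 7 definitive endoderm markers other than Epcam, 3, 3 and 2 were above 0 in the anterior libraries and 6 in each posterior one. Over all genes, 22.3%, 13.6% and 27.2% were listed at 0 on the anterior side, against 6.30%, 5.34% and 20.0% on the posterior side. The part of depth and detection in these counts was not tested. Blood and endothelium markers were low, with summed levels of at most 1.58 in the anterior and at least 3.45 in the posterior libraries, and Kdr, an early marker of blood and vessel mesoderm, had no value above 0 on the anterior side and stood at 0.23, 1.89 and 2.32 on the posterior side. Without embryo C, 6 of 17 parietal endoderm and XEN markers were higher in the anterior libraries at an unadjusted p under 0.05 (limma), where 140 of 10914 genes were. With all embryos 0 of the 17 markers and 86 genes were.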
